A study of Danio rerio with 6 samples.

Results

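The wells described here held cells sorted from pituitaries taken from juvenile zebrafish. They were chosen by a set of secreted and matrix-related genes that includes crhbp and fstb. Whether each cell lay in the gland or in tissue taken with it was not tested. A well was taken when it held at least 400 UMIs (unique molecular identifiers, each counting 1 captured RNA molecule), had under 2% of them from the globin rows hbba1, hbaa1 and HBZ (1 of many), and showed at least 1 UMI of at least 3 of 8 genes: crhbp, fstb, pcolcea, lect1, colec12, igfbp2a, vasna and ptgdsb.2. At 37 days post fertilization (dpf) 113 wells met this rule, 52 on replicate 1 and 61 on replicate 2, out of 506 wells that passed the UMI and globin limits there and 1246 that passed them in the whole series. They are called rule wells below. The 393 remaining wells at 37 dpf, 193 and 200 per plate, are the other kept wells that they were set against.

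All fish were of the AB strain and carried Tg(pomca:EGFP), a transgene that marks pomca-expressing pituitary cells. Juveniles of 37 dpf received 5 µl, and males of 5 or 7 months 10 µl, of a fluorescent dipeptide (β-Ala-Lys-Nε-AMCA at 4.6 mM), and pituitaries were taken 3 hours later. For each age 5 pituitaries were pooled, dissociated and stained with propidium iodide, and cells were sorted into 2 plates of 384 wells for MARS-seq, a plate-based single-cell RNA-seq method that counts UMIs. The labels name the neurohypophysis, or posterior pituitary lobe, as the enriched tissue and do not give the sort gate. Since both plates of an age came from 1 pool of fish, the spread between them is technical and says nothing of the spread between fish.

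CRH-binding protein, the product of crhbp, is a secreted protein that binds corticotropin-releasing hormone and urocortins and limits their access to receptors. Follistatin, the product of fstb, binds activins in the extracellular space and was first known for lowering the release of follicle-stimulating hormone from the pituitary. Mesenchymal cells around and within the gland make matrix and secreted binding proteins, and the connective tissue of this region also includes meninges, vessel walls, cartilage and the bone of the skull base.

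The rule wells held 77264 UMIs on replicate 1 and 78922 on replicate 2, against 497728 and 519322 UMIs in the other kept wells. Their median was 896 and 1093 UMIs per well, against 1795 and 1542.5 UMIs in the other kept wells. As a group, rule wells were thus not deeper than the other kept wells. Meeting the rule still depended on depth. With every kept well thinned at random to the same number of UMIs, 69 wells at 37 dpf met the rule, against 113 before. The lowest rule wells held 410 and 401 UMIs, and the highest 18047 and 3766 UMIs. That deepest well of replicate 1 stood apart: it held 23.4% of the UMIs of all rule wells on its plate, while the next deepest well there had 4468. It met the rule with 1 UMI of crhbp, 5 of pcolcea and 1 of vasna. Of its UMIs, 8.73% were col10a1a, 6.94% col1a1a, 6.67% col1a2 and 5.83% col1a1b, genes of the type X collagen of bone-forming and hypertrophic cartilage cells and of type I collagen. Results on replicate 1 that rest on this well are given with and without it. No well ID was shared between plates, and ribosomal protein rows took a median of 20.9% and 20.9% of UMIs in rule wells, against 23.7% and 20.7% in other kept wells.

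The 8 genes chose the wells, so their levels are a description and were not tested. Levels are in CPM, the UMIs of a gene in a group of wells scaled by the total UMIs of that group. crhbp stood at 789.5 and 2243 CPM in rule wells on replicates 1 and 2, against 28.1 and 7.70 CPM in other kept wells. fstb stood at 401 and 899.6 CPM in rule wells, against 14.1 and 17.3 CPM. The order was the same on both plates, as the choice of wells by these genes builds in, and single wells overlapped between the groups. Ratios below are log2 of (CPM + 20) in rule wells over (CPM + 20) in other kept wells, which understates the difference for genes of low level, and are given as mean ± SD over the 2 plates. The ratio was 5.21 ± 1.61 for crhbp and 4.13 ± 0.70 for fstb. For pcolcea, whose product enhances the removal of the C-terminal propeptide from procollagens, it was 4.22 ± 0.46. ptgdsb.2, which encodes a lipocalin-type prostaglandin D2 synthase, had 3.93 ± 0.63, and igfbp2a, an insulin-like growth factor-binding protein, had 3.84 ± 0.49. colec12, a collectin scavenger receptor, had 3.50 ± 0.30, and vasna, a vasorin that binds TGF-β in mammals, had 3.50 ± 0.60. The ratio of lect1, the gene of the cartilage glycoprotein chondromodulin, was the smallest of the 8 at 3.08 ± 0.42. Without the deepest well the ratio of crhbp on replicate 1 was 4.42 instead of 4.07.

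**Figure D1:**
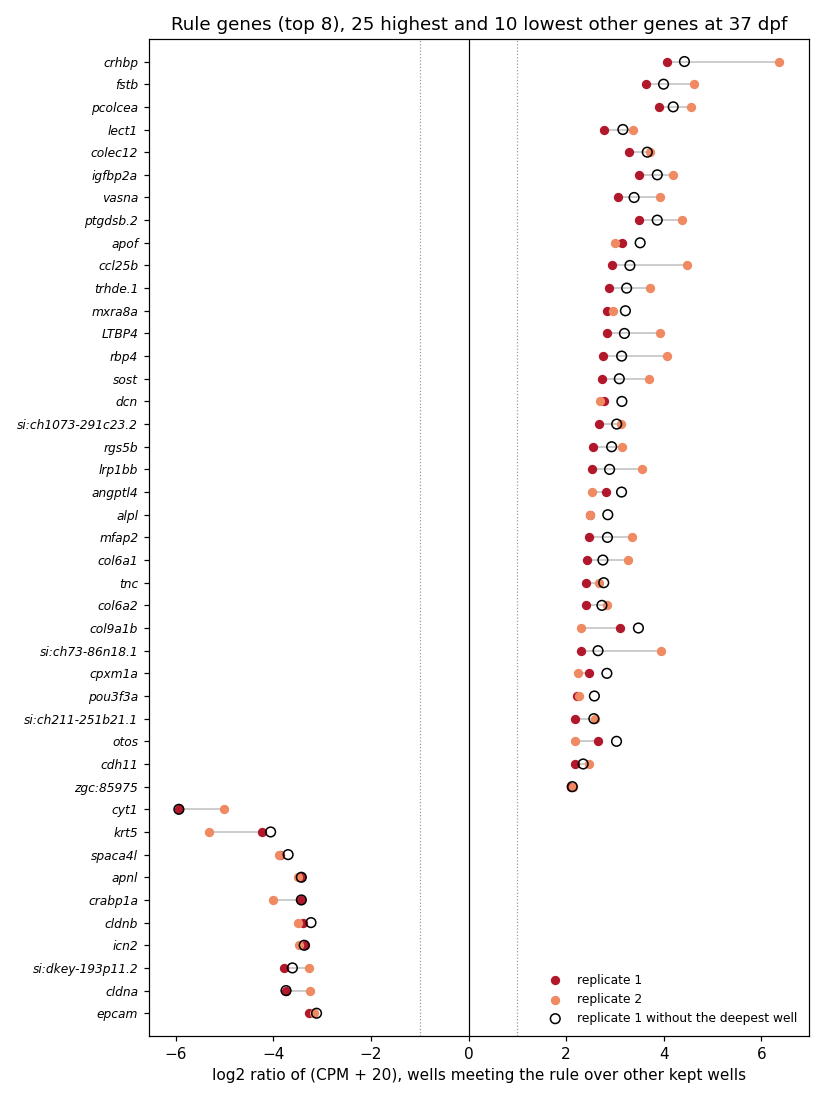
Log2 ratio of (CPM + 20) in rule wells over other kept wells at 37 dpf (x axis), for the 8 rule genes, the 25 highest and the 10 lowest other genes (y axis); filled points are the 2 plates and open circles replicate 1 without its deepest well. All 25 lie above 2 and all 10 below -3 on both plates, and the open circles stay on the same side.

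Shares of wells with a UMI show how unevenly the rule genes were spread. crhbp had a UMI in 40.4% and 52.5% of rule wells, against 2.59% and 2.0% of other kept wells. With each well thinned to 400 UMIs the shares were 23.1% and 42.6%, against 1.04% and 0.50%. Wells with at least 2% globin, which should lack crhbp, had a UMI of it in 6.06% and 5.13% of cases at a median of 5632 and 6928.5 UMIs. Thinned to 400 UMIs, 1 of 66 and 0 of 78 of these globin-rich wells had one, and 0 of 78 allows a share of up to 3.85%. fstb had a UMI in 25% and 45.9% of rule wells, against 2.59% and 2.0% of other kept wells and 1.52% and 0% of the globin-rich wells. pcolcea and ptgdsb.2 each had one in 65.4% and 72.1% of rule wells, lect1 in 61.5% and 70.5%, and colec12 in 57.7% and 60.7%. igfbp2a reached 34.6% and 36.1%, and vasna 34.6% and 39.3%.

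The 2 genes that give these wells their name did not mark all of them. Of the rule wells, 53 had a UMI of crhbp, 41 one of fstb and 30 one of both, while 49 wells, or 43.4%, had neither and met the rule through the other genes. At this depth a gene with no UMI may still have been expressed. The genes were nonetheless found together: over all 506 kept wells, fstb had a UMI in 30 of the 62 wells with crhbp (48.4%) and in 20 of the 444 without it (4.50%). vasna was found in 38.7% of the wells with crhbp and in 7.66% of those without, and pcolcea in 62.9% and 16.7%. lect1 was the least separated, with 46.8% against 23.0%. When a gene was left out and wells were chosen by 3 of the remaining 7, crhbp had a UMI in 44 of 104 such wells against 18 of 402 others, and lect1 in 50 of 88 against 81 of 418. These counts describe the wells from which the genes were picked and were not tested.

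**Figure D2:**
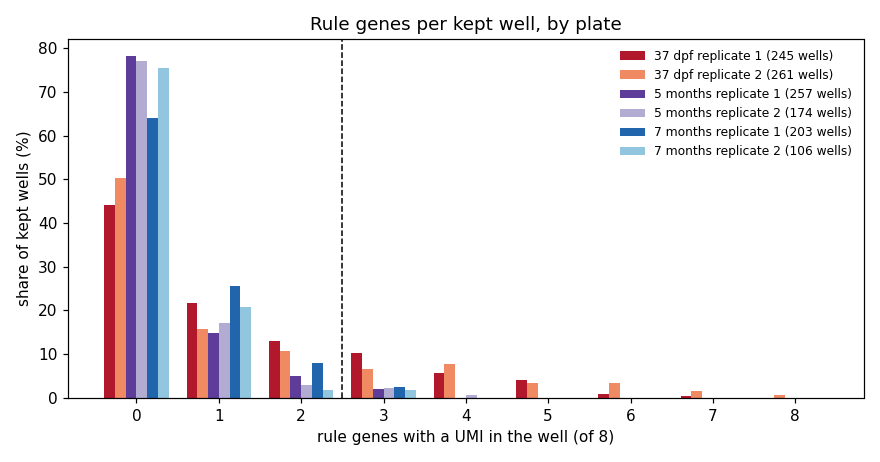
Share of kept wells in percent (y axis) by the number of the 8 rule genes with a UMI (x axis), with a bar for each of the 6 plates; the dashed line marks the rule. Of the kept 37 dpf wells, 37 had 5 or more of the genes, and no adult well did.

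The number of wells thinned out gradually with the number of genes, with no gap at the threshold. Just inside it were 42 wells with exactly 3 genes, 25 and 17 per plate, and just outside it 60 wells with exactly 2, 32 and 28 per plate. Their median depth was 915 and 830 UMIs inside, against 817 and 812 outside. The deepest well had exactly 3 genes and held 18047 of the 43987 UMIs inside on replicate 1, so that plate is also given without it. rbp4, described below, stood at 3433 and 7025 CPM inside, 5783 CPM on replicate 1 without the deepest well, against 4146 and 2479 CPM outside. The plates overlapped across the threshold with that well and did not without it. ccl25b stood at 2069 and 3407 CPM inside, 3470 CPM on replicate 1 without the deepest well, against 1003 and 548 CPM outside. The cartilage collagen gene col2a1a stood at 8457 and 8283 CPM inside, 14341 CPM on replicate 1 without that well, against 3256 and 11349 CPM outside, and overlapped either way. The epidermal keratin gene krt5 stood at 409 and 209.7 CPM inside, 540 CPM on replicate 1 without that well, against 6853 and 313 CPM outside. It overlapped either way, and the large gap was on replicate 1 only. On that plate krt5 had a UMI in 40% of the wells inside and 31.25% of those outside.

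Outside the 8 genes, 2424 genes had at least 20 UMIs over the kept wells of each plate. Of these, 214 (8.83%) were at least 2-fold higher in rule wells on both plates and 310 (12.8%) at least 2-fold lower. Because the rule was applied to these same wells, the counts are a description without a test. Without the deepest well they were 239 (9.86%) and 293 (12.1%), with 211 of the higher and 269 of the lower genes shared by both settings. The median ratio over all measured genes was -0.36, and TMM scaling, which assumes that most genes do not differ, moved it to -0.78 and the counts to 111 higher and 594 lower. The 25 highest and the 10 lowest genes stayed at least 2-fold apart on both plates under that scaling.

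The genes of a retinol carrier, a chemokine, an apolipoprotein and a lipase inhibitor were among the 25 highest. rbp4, which encodes the plasma carrier of retinol, stood at 6717 and 9820 CPM in rule wells, against 976 and 568 CPM in other kept wells, a ratio of 3.41 ± 0.92. It had a UMI in 84.6% and 95.1% of rule wells, against 47.2% and 35.5% of other kept wells and 36.4% and 25.6% of globin-rich wells. After thinning to 400 UMIs the shares were 75.0% and 90.2% in rule wells, against 24.9% and 18.5%. rbp4 was therefore found in more rule wells than crhbp itself on both plates. ccl25b, a chemokine gene, stood at 2252 and 4612 CPM in rule wells, against 277 and 187 CPM, with ratios of 2.93 and 4.49 on the 2 plates. It had a UMI in 61.5% and 50.8% of rule wells, against 20.2% and 22% of other kept wells and 31.8% and 34.6% of the deeper globin-rich wells. After thinning the shares were 40.4% and 36.1% in rule wells, against 8.81% and 6.5% of other kept wells and 1.52% and 1.28% of globin-rich wells. apof, the gene of apolipoprotein F, stood at 1165 and 824 CPM in rule wells, against 115 and 84.7 CPM, and higher still in the cartilage-rich rule wells described below. angptl4, whose product inhibits lipoprotein lipase, stood at 362 and 481 CPM, against 34.2 and 67.4 CPM. For none of the 25 genes did a single well hold over 50% of the UMIs of the rule wells on either plate.

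Several other hormone and growth factor regulators were also higher in rule wells. Of these, frzb stood highest in a subset of rule wells with little crhbp and fstb, as given below. trhde.1, a gene of the ectoenzyme that breaks down thyrotropin-releasing hormone, stood at 246 and 494 CPM in rule wells, against 16.1 and 19.3 CPM in other kept wells. Its ratio was 3.30 ± 0.59, and it had a UMI in 21.2% and 26.2% of rule wells, against 3.11% and 2.0%. sost, the gene of the Wnt antagonist sclerostin, stood at 220.02 and 342 CPM, against 16.1 and 7.70 CPM. LTBP4, which encodes a latent TGF-β-binding protein, stood at 337 and 545 CPM, against 30.1 and 17.3 CPM. The list of hormone and growth factor antagonists held 37 genes of the table besides the rule genes, of which 7 were measured. Of these 7, 5 were at least 2-fold higher in rule wells and 1 was lower, beside 8.83% and 12.8% of all measured genes. Their median ratio was 1.97, beside -0.36 over all measured genes. The secreted Wnt inhibitor genes frzb and sfrp5 had ratios of 2.73 ± 0.95 and 1.97 ± 0.93, the follistatin-like genes fstl1b and fstl3 had 2.24 ± 0.42 and 1.63 ± 0.22, and the protease gene htra1b had 2.11 ± 0.27. fstl3 did not keep its direction in 2 settings that weight wells equally or nearly so, with -0.12 for the mean over wells and -0.59 after thinning to 400 UMIs. igfbp1a ran the other way from igfbp2a, at 90.6 and 25.3 CPM in rule wells, against 424 and 383 CPM.

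The partners of these binding proteins were mostly out of sight in the sorted cells. None of crha, crhb, uts1, ucn3l, crhr1 or crhr2, the genes of CRH, its relatives and their receptors, had a single UMI in any kept 37 dpf well. A count of 0 allows up to 19.2 CPM in the rule wells and up to 2.56 CPM over all kept 37 dpf wells. The activin subunit genes inhbaa, inhbab and inhbb, whose products follistatin binds, had 0 UMIs in rule wells and 4, 0 and 1 UMIs in all kept 37 dpf wells. Of the 27 genes in the activin, BMP and TGF-β list, 2 were measured, and neither id1 nor id3 was 2-fold apart on both plates. Of the ligands of igfbp2a, igf2b was the 1 gene of its list with enough UMIs, at 194 and 329 CPM in rule wells, against 44.2 and 48.1 CPM, a ratio of 2.05 ± 0.44. igf1 had 9 UMIs in rule wells and 2 in other kept wells.

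Many measured matrix genes were higher in rule wells, with the type I collagens as an exception once the deepest well was set aside. Of 35 collagen genes 20 were measured, and 10 were at least 2-fold higher and none lower, with a median ratio of 1.62. The shares over all measured genes were 8.83% and 12.8%. Among the 10 were col2a1a, col9a2 and col9a3 of the cartilage list. col9a2 stood at 4581 and 4733 CPM in the 23 cartilage-rich rule wells described below, against 335 and 173 CPM in the remaining 89. The ratio of col9a3 was -0.31 without the cartilage-rich wells and the deepest well. As col9a2 and col9a3 are on the list that chose the cartilage-rich wells, these differences are built in. Without the deepest well 11 of the 20 measured collagen genes were higher and 3 lower. The type VI collagen genes col6a1 and col6a2, of the beaded filaments of connective tissue, had ratios of 2.84 ± 0.59 and 2.62 ± 0.31, and col5a1 of type V collagen had 2.17 ± 0.22. The type I collagen gene col1a2 stood at 16191 and 456 CPM in rule wells, against 1778 and 1972 CPM in other kept wells. On replicate 1 the deepest well held 96.2% of those UMIs, and without it the value was 794 CPM, so both plates were then below the other kept wells. col1a1a without that well was likewise lower, at 1148 and 228 CPM, against 2397 and 2998 CPM. The summed level of the collagen list was 88476 and 15180 CPM in rule wells, 24317 CPM on replicate 1 without the deepest well, against 10745 and 12636 CPM.

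Of 61 genes for matrix glycoproteins and proteoglycans, 12 were measured. In rule wells 7 were at least 2-fold higher and none lower, beside 8.83% and 12.8% of all measured genes. Without the deepest well 7 were higher and 1 was lower. The proteoglycan gene dcn (decorin) stood at 854 and 735 CPM, against 108 and 96.3 CPM, a ratio of 2.73 ± 0.05. The microfibril gene mfap2 had 2.92 ± 0.62, the tenascin-C gene tnc 2.54 ± 0.19, and the basement membrane genes nid1a and lama4 had 2.48 ± 0.80 and 2.28 ± 1.53. sparc, a collagen-binding glycoprotein gene, was not 2-fold apart on both plates, at 6989 and 1571 CPM, against 1051 and 1184 CPM, and 2820 CPM on replicate 1 without the deepest well. Of 37 genes for collagen processing and matrix remodelling, 11 were measured, and 9 were higher and none lower, with or without the deepest well. These included the matrix metalloproteinase genes mmp2 at 1.93 ± 0.15 and mmp14a at 2.37 ± 0.80, the inhibitor gene timp2a at 2.01 ± 0.19, and the collagen crosslinking genes loxl1 at 1.92 ± 1.05 and loxl2a at 1.59 ± 0.11. mxra8a, a matrix remodelling-associated membrane protein gene, stood at 427 and 317 CPM, against 42.2 and 23.1 CPM. The mesenchymal cadherin gene cdh11 had 2.32 ± 0.21 and the fibroblast marker pdgfra 2.35 ± 0.46.

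**Figure D3:**
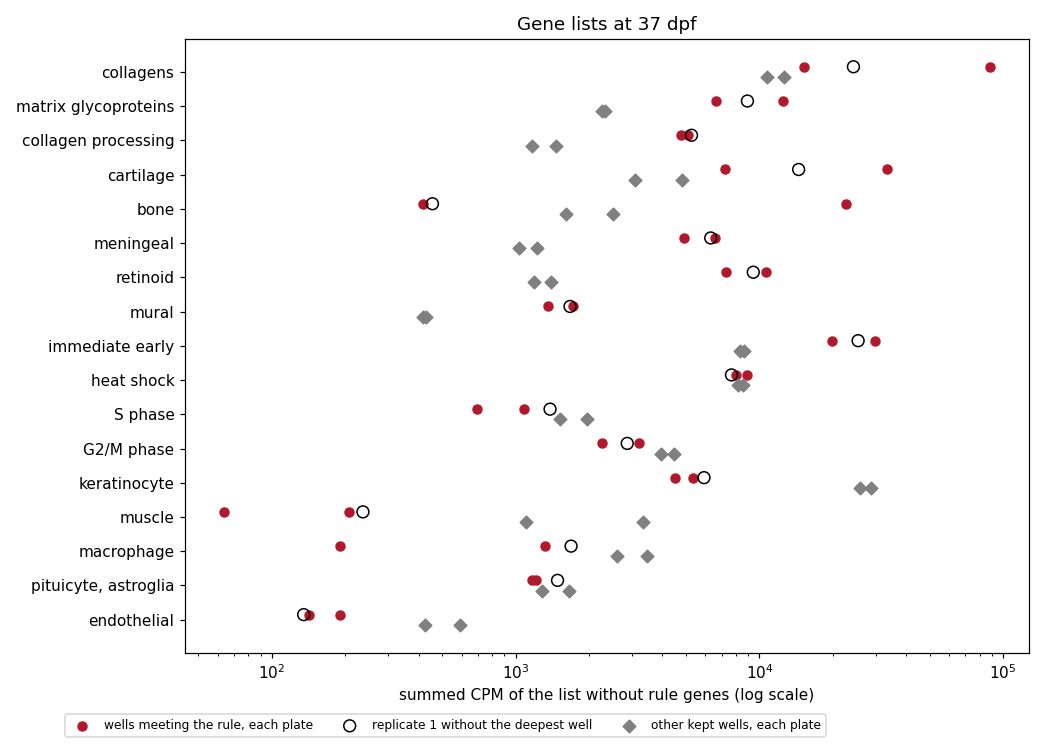
Summed CPM of gene lists without the rule genes (x axis, log scale) in rule wells and other kept wells of each 37 dpf plate (y axis, lists); open circles give replicate 1 without its deepest well. The immediate early list lies at 19880 and 29688 CPM in rule wells, above both other groups, and the bone list drops to 456 CPM on replicate 1 without that well.

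Most measured markers used for the meninges were also higher. Of the 6 measured genes of this list, 5 were at least 2-fold higher in rule wells and none lower, with and without the deepest well. Over all measured genes, 8.83% were higher and 12.8% lower. The 5 were cdh11, cxcl12a, ptgdsb.1, dcn and cldn11a, of which dcn and cxcl12a are also on the fibroblast list. That fibroblast list had 13 measured genes, with 8 at least 2-fold higher and none lower, or 8 and 2 without the deepest well. These counts therefore do not tell meningeal cells from other fibroblasts. ptgdsb.1, a second prostaglandin D2 synthase gene next in name to a rule gene, stood at 1579 and 2129 CPM, against 432 and 75.1 CPM. Reads of the paralogs ptgdsb.1 and ptgdsb.2 may not be fully told apart. cxcl12a, a chemokine gene, stood at 1100.1 and 1533 CPM, against 309 and 479 CPM. The tight junction gene cldn11a had 2.09 ± 1.31. Outside the meningeal list, rgs5b, a regulator of G-protein signalling from the list of mural (vessel wall) genes, had 2.85 ± 0.42. Of the 4 measured mural genes 2 were at least 2-fold higher and none lower, while rgs5a and cald1a were not 2-fold apart on both plates. Of 3 measured retinoid genes, rbp4 was higher and crabp1a, described below, was lower. aldh1a2, of retinoic acid synthesis, was below the limit for measured genes, with 6 and 10 UMIs in rule wells, against 7 and 19 UMIs. alpl, the tissue-nonspecific alkaline phosphatase gene, had 2.49 and 2.49 on the 2 plates. pou3f3a, a POU-domain transcription factor gene, had 2.25 ± 0.03. otos, which encodes otospiralin, a protein of inner ear fibrocytes in mammals, had 2.43 ± 0.34. The other members of the 25 were cpxm1a at 2.35 ± 0.17, lrp1bb at 3.03 ± 0.72, zgc:85975 at 2.11 ± 0.02, si:ch1073-291c23.2 at 2.89 ± 0.32, si:ch211-251b21.1 at 2.39 ± 0.28, si:ch73-86n18.1 at 3.12 ± 1.16 and col9a1b at 2.71 ± 0.56.

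Cartilage genes split the rule wells. Of the cartilage list, 11 genes were measured apart from lect1. In rule wells 6 were at least 2-fold higher and none lower, beside 8.83% and 12.8% of all measured genes. Without the deepest well 1 was lower. col2a1a, of the main cartilage collagen, stood at 6756 and 4346 CPM in rule wells, against 709 and 1192 CPM in other kept wells. This level was not evenly shared. In 23 rule wells, 11 and 12 per plate, genes of the cartilage list, with col10a1a and lect1 left out, took at least 2% of UMIs, with a median of 4.28% and 3.40%. The other 89, leaving out the deepest well, had a median of 0.22% and 0.15%. The limit of 2% was chosen after the values had been seen, 18 rule wells lay between 1% and 3%, and the subsets were not tested against each other. Among the other kept wells, 41 also had at least 2% cartilage genes.

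In the 23 cartilage-rich wells crhbp had a UMI in 1 well and fstb in 2, against 51 and 39 of the remaining 89. ccl25b had one in 2 of the 23, against 60 of the 89. sost had one in 0 of the 23, against 23 of the 89, and trhde.1 in 1 of the 23, against 26 of the 89. rbp4 stood at 1388 and 2840 CPM in the cartilage-rich wells, against 11114 and 10776 CPM in the rest. The cartilage-rich wells met the rule mainly with lect1, found in 21 of 23, with colec12 and pcolcea in 14 each and with ptgdsb.2 in 14. They also carried the larger part of otos, at 7496 and 9256 CPM, against 692 and 591 CPM in the rest, and of col9a1b, at 5830 and 4944 CPM, against 915 and 764 CPM. dcn stood at 2152 and 1473 CPM in them, against 781 and 634 CPM, frzb at 1249 and 2945 CPM, against 513 and 576 CPM, and mxra8a at 1388 and 947 CPM, against 290.1 and 230.5 CPM. apof stood at 2915 and 1473 CPM in the cartilage-rich wells, against 1071 and 735 CPM in the rest, and alpl at 764 and 841 CPM, against 245 and 187 CPM. col6a2 was present in both, at 2082 and 3366 CPM, against 2499 and 2319 CPM. The pair of genes in the name was thus found mainly in the 89 wells, and no other name is given to either subset. Part of this contrast can be built in, since both are rule genes and a well with lect1 needed fewer of the others. The median number of rule genes was 3 on both plates in the 23 wells and 4 on both in the 89.

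**Figure D4:**
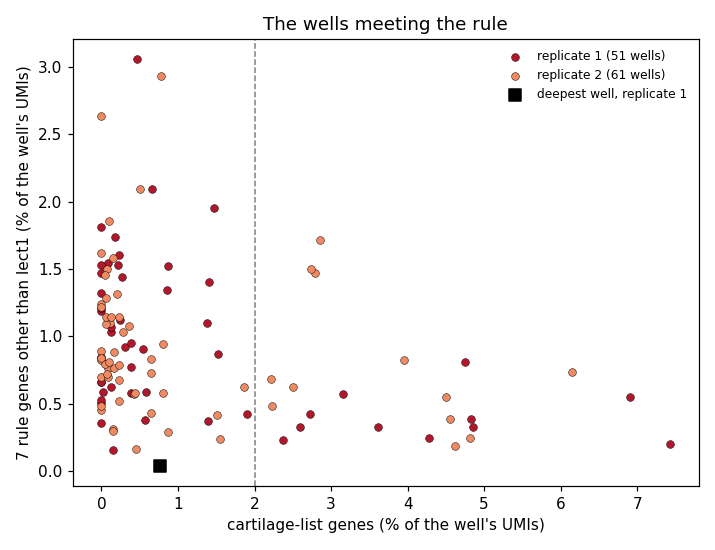
Each of the 113 rule wells by the share of its UMIs from cartilage-list genes (x axis, percent) and from the 7 rule genes other than lect1 (y axis, percent), by plate; the square is the deepest well and the dashed line the 2% limit. Wells with over 3% cartilage UMIs all lie under 1% for the rule genes. Wells between 2% and 3% reach up to 1.71%, and many wells under 2% also lie under 1%.

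Without the 23 wells and the deepest one, 223 genes were at least 2-fold higher on both plates and 287 lower. Of the 25 highest genes, 24 stayed at least 2-fold higher, and otos, with ratios of 1.30 and 0.75, did not. The ratio of col9a3, a cartilage collagen gene, turned to -0.31, against 1.86 with all rule wells. Its drop is built in, because col9a3 is on the list that chose the 23 wells. The 41 cartilage-rich wells among the other kept wells were not taken out, which lowers the ratios of cartilage genes further.

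Immediate early genes are transcribed soon after a stimulus, cell dissociation included. Of 27 measured, 13 were at least 2-fold higher in rule wells and none lower, with a median ratio of 1.30. Without the deepest well 17 were higher and none lower. The shares of all measured genes that were higher were 8.83% with that well and 9.86% without it. Their summed level was 19880 and 29688 CPM in rule wells, against 8318 and 8669 CPM in other kept wells. fosab, an AP-1 subunit gene, stood at 4297 and 6120 CPM, against 1519 and 1529 CPM. egr1 stood at 2757 and 4473 CPM, against 956 and 924 CPM, and the antiproliferative gene btg2 at 2705 and 3408 CPM, against 753 and 922 CPM. The cytokine signalling inhibitor gene socs3b had 2.37 ± 0.67. fosab stood at 5830 and 7468 CPM in the 23 cartilage-rich wells, against 5445 and 5935 CPM in the other 89. Of 14 measured heat shock genes, 1 was higher and 3 were lower (2 and 3 without the deepest well), beside 8.83% and 12.8% of all measured genes. Their summed level was 8011 and 8882 CPM, against 8207 and 8528 CPM. The part of the immediate early genes in the gene groups above was not tested.

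Some genes of the cell cycle were lower in rule wells. Of 13 measured S phase genes, 7 were at least 2-fold lower and none higher, and of 13 measured G2/M genes, 6 were lower and none higher. Over all measured genes, 12.8% were lower. Without the deepest well 5 of each list were lower. The median G2/M share per well was 0.217% and 0.243% in rule wells, against 0.260% and 0.235% in other kept wells, so it was not lower on replicate 2. The replication helicase genes mcm3, mcm4, mcm5, mcm6 and mcm7 were among the lower genes, with 0, 3, 2, 3 and 1 UMIs in all rule wells, and so was mki67, a gene of proliferating cells, at 38.8 and 88.7 CPM, against 225 and 262 CPM. pcna was not 2-fold apart, at 492 and 253 CPM, against 563 and 437 CPM.

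Epidermal and junction genes were prominent among the 10 lowest in rule wells. cyt1 and krt5, epidermal keratin genes, led them. cyt1 had 0 UMIs in rule wells and 922 in other kept wells, so that its level was at least 47.2-fold lower, with 3 UMIs over all rule wells as the floor. apnl and crabp1a, the gene of a cellular retinoic acid-binding protein, also had 0 UMIs, against 204 and 254, at least 10.4-fold and 13.0-fold lower. krt5 stood at 414 and 177 CPM in rule wells, against 8169 and 7818 CPM. The junction and adhesion genes cldna, cldnb and epcam had ratios of -3.49 ± 0.35, -3.44 ± 0.07 and -3.22 ± 0.08. spaca4l, icn2 and si:dkey-193p11.2, with ratios of -3.87 ± 0.02, -3.41 ± 0.09 and -3.52 ± 0.35, completed the 10.

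Markers of other cell types were looked up in the rule wells in the same way, beside 8.83% higher and 12.8% lower over all measured genes. Of 17 measured keratinocyte genes 12 were lower and 1, krt94, was higher, and the list summed to 5332 and 4498 CPM, against 28728 and 25816 CPM. All 8 measured muscle genes were lower. Of 11 measured macrophage genes 4 were lower and none higher, with summed levels of 1320.2 and 190.1 CPM, against 2606 and 3474 CPM, and 1 rule well on replicate 1 had 3.75% macrophage genes. Of 5 measured endothelial genes 3 were lower. cdh5, below the limit for measured genes, had 2 UMIs in rule wells and 8 in other kept wells. It was not lower, at 12.9 and 12.7 CPM, against 6.03 and 9.63 CPM. Of 7 measured pituicyte and astroglia genes, fabp7a and slc1a2b were lower and glula higher, with a list total of 1165 and 1216 CPM, against 1282 and 1658 CPM. Of 28 hormone cell genes 27 had 0 UMIs in rule wells, pomca among them, and all 13 lymphocyte genes had 0. Other kept wells also held few, at a summed 8.04 and 34.7 CPM for hormone cell genes and 4.02 and 13.5 CPM for lymphocyte genes. No gene of either list was measured, so these zeros do not set rule wells apart from the other kept wells. Erythroid genes summed to 2783 and 2293 CPM, against 3478 and 3031 CPM. Of 4 measured bone genes alpl was higher and none was lower, while col10a1a and ifitm5 were lower without the deepest well, when the list summed to 456 and 418 CPM, against 1607 and 2517 CPM. The part of these markers in the other gene groups was not tested, beyond the values given without the deepest and the cartilage-rich wells.

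In the adult plates the same rule found 5 of 257 and 5 of 174 wells at 5 months and 5 of 203 and 2 of 106 at 7 months. The 37 dpf share was 21.2% and 23.4%, the 5-month share 1.95% and 2.87% and the 7-month share 2.46% and 1.89%. The exact 95% Clopper-Pearson intervals were 16.3% to 26.9% and 18.4% to 29.0% at 37 dpf and ended at no more than 6.65% on any adult plate. With each well thinned to 400 UMIs, 29 and 40 wells met the rule at 37 dpf, 0 and 0 at 5 months, where 3 counts of the total, as the limit that a count of 0 allows, are 1.17% and 1.72% and the two-sided exact intervals end at 1.43% and 2.1%, and 1 and 2 at 7 months. The intervals cover counting error only. Since the rule was drawn from the 37 dpf plates, and sex is given for the adults alone, and the adult plates share a sequencing batch that no 37 dpf plate is listed in, the ages were not tested against each other. A test of 37 dpf against adult rule wells would have needed at least 10 wells on both plates of an adult age and was not made.

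Over all kept wells lect1 had 268 and 331 CPM on the 37 dpf plates, 18.2 and 3.82 CPM on the 5-month plates and 19.6 and 0 CPM on the 7-month plates. col9a1b and otos had 435 and 581 UMIs in kept wells at 37 dpf and 0 at both adult ages. crhbp had 130.4 and 303 CPM on the 37 dpf plates, 47.8 and 22.9 CPM on the 5-month plates and 88.1 and 24.4 CPM on the 7-month plates. Not all of the 25 highest genes shared this order. ccl25b had 543 and 771 CPM on the 37 dpf plates, 1737 and 2256 CPM on the 5-month plates and 2677 and 696 CPM on the 7-month plates. rbp4 had 1748 and 1789 CPM on the 37 dpf plates, 1707 and 2088 CPM on the 5-month plates and 5677 and 2013 CPM on the 7-month plates. Of the 25 genes, 11 were lower on all 4 adult plates than on both 37 dpf plates. The same count was not made over all measured genes, so it is not read as a trait of the 25. In the bulk of a plate, fewer cells of a type and less RNA per cell cannot be told apart. In the 10 rule wells of 5 months, rbp4 had a UMI in all 10, ccl25b in 9, crhbp in 5 and lect1 in 1. In the 7 of 7 months, rbp4 had one in 7, ccl25b in 6, crhbp in 1 and lect1 in 0.

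**Figure D5:**
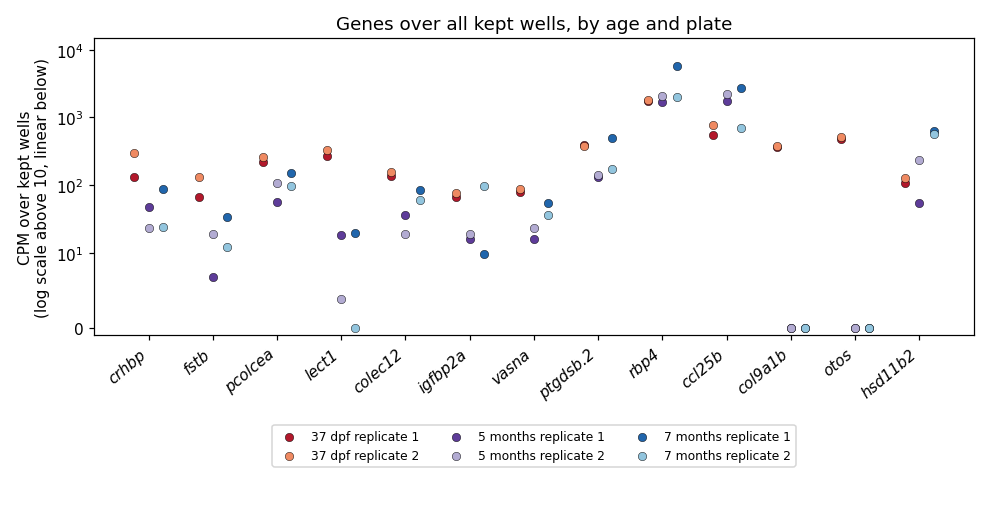
CPM over all kept wells of a plate (y axis, log scale above 10 and linear below) for the 8 rule genes and 5 further genes (x axis), with a point for each plate at 37 dpf, 5 months and 7 months. lect1, col9a1b and otos lie highest at 37 dpf, whereas ccl25b and rbp4 do not.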

How the data were processed

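The authors deposited raw counts: UMIs per gene and well for 384 wells of each of 6 MARS-seq plates, with no normalization, per the file headers and values. Per the submitters' processing notes bcl2fastq 2.15.0.4, Seurat 3.1.5 and the build danRer10 were used, in roles that the notes do not give, and the aligner is not given in the sources used here. A deposited batch table lists 1920 wells on 5 plates. It gives batch SB350 for replicate 2 of 37 dpf and SB390 for the adult plates, and does not list replicate 1 of 37 dpf, so every ratio was taken within a plate. The 92 ERCC spike-in rows held 0 UMIs and were left out, leaving 31325 gene rows. No doublet caller was run on these sorted wells. Replicate numbers follow the accession order.

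Counts were summed over the wells of a group and plate with Python 3.11.15 and pandas 2.3.3, scaled to CPM and compared as log2 of CPM plus 20. A gene was measured with at least 20 UMIs over kept wells on each plate and called with at least a 2-fold ratio in the same direction on both. Thinning drew 400 UMIs per well with a fixed seed, and edgeR 4.0.16 gave the TMM factors. The calling step was tested on simulated data. Named genes were the 8 rule genes, the 25 highest by the smaller plate ratio with a UMI in at least 10% of rule wells on each plate, the 10 lowest, and members of gene lists with the most UMIs or called. Rows of mitochondrial, AC024175 and ribosomal protein genes were not named. List members under older symbols were looked up in gene name tables. The members, the lists and the tests were chosen with earlier results of these data known. The planned edgeR test against adult wells was not run, because no adult age had 10 rule wells on both plates. No sequences were at hand for these genes and none are shown.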

Additional observations from a re-analysis of the deposited data

Results flagged for a closer look

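Wells left out for low depth also carried the rule genes. Among wells under 400 UMIs, 6 of 73 on replicate 1 and 13 of 45 on replicate 2 of 37 dpf held at least 1 UMI of 3 or more of the 8 genes, at a median depth of 249 and 280 UMIs. That is 8.22% and 28.9% of such wells. No well under 400 UMIs on the adult plates met the gene part of the rule. Their median depth was lower, at 214 and 13.5 UMIs on the 5-month plates and 88 and 10 UMIs on the 7-month plates. At such unlike depths these shares cannot be compared between ages. None of the 66 and 78 globin-rich wells at 37 dpf met the gene part of the rule, at a median of 5632 and 6928.5 UMIs. These wells entered no comparison.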

How the results depend on the processing

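Rule wells and other kept wells were already paired by plate, since every ratio was taken within a plate. No paired test was made, because this comparison rests on no test. The tool, filter, leave-one-out and block alternatives of the adult comparison were not run, because that test was not run. The number of rule wells was 173 with at least 2 of the 8 genes, 71 with at least 4, 56 with a minimum of 1000 UMIs and 69 after thinning to 400 UMIs, and 52 to 61 with either plate left out. Genes at least 2-fold higher numbered 111 and lower 594 under TMM scaling, 97 and 133 with a minimum of 50 UMIs per plate, 464 and 494 with no minimum, 331 and 581 with globin-rich wells among the others, and 36 and 41 after thinning. The mean over wells gave 107 higher, and a single plate 294 to 343 higher and 576 to 633 lower. The remaining settings, the 2 added after the data had been seen included, stayed within 1.5 times of 214 and 310. The 10 lowest genes stayed at least 2-fold lower in all 14 settings, and of the 25 highest 24 did so for the mean over wells, 24 without cartilage-rich wells, 21 after thinning and all 25 in the other 11. As these genes were picked for their ratios, TMM scaling, another UMI minimum or a plate left out could not have changed this. Of the values of named genes, 5 of 4326 reversed. col9a3 was at -0.31 without cartilage-rich wells, a drop built in because col9a3 is on the list that chose them. fstl3 was at -0.12 for the mean over wells and -0.59 after thinning. fabp11a was at -0.20 and ucmaa at -0.028 after thinning. The cause of the fstl3, fabp11a and ucmaa values was not tested. Depth limits all of this, since most genes had too few UMIs to be measured.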

Other observations

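hsd11b2, chosen after its values were seen, encodes the enzyme that inactivates cortisol. It had 26 and 38 UMIs in rule wells, against 35 and 38 UMIs in the far larger total of the other kept wells, a log2 ratio of 1.98 and 2.43. Of the 89 rule wells with under 2% cartilage genes, 26 had a UMI of it, and of the 23 cartilage-rich rule wells 5 did. The plates differed: it stood at 0 and 841 CPM in the cartilage-rich wells, against 558 and 432 CPM in the 89. Over all kept wells it had 106 and 127 CPM on the 37 dpf plates, 54.6 and 237 CPM on the 5-month plates and 621 and 561 CPM on the 7-month plates.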
